A study of Homo sapiens with 6 samples.

Results

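The enzymes of de novo purine synthesis, with IMPDH1 among them, were examined in renal cancer cells after knockdown of YB1. The members were chosen by name, as the rows of the deposited expression table for IMPDH1, IMPDH2, PRPS1, PPAT, GART, PFAS, PAICS, ADSL, ATIC and GMPS. All 10 names were found among the 20030 genes of the table, and all 10 were among the 10439 genes abundant enough to be tested. The cells were 786-O, an established human line that stems from a clear cell renal cell carcinoma (ccRCC), at passages 16 to 18. YB1 is a protein that binds DNA and RNA, and the study was concerned with its role in ccRCC. RNA was sequenced from cells with stable lentiviral expression of a small hairpin RNA (shRNA) against YB1 (shYB1, 3 libraries) and from control cells with a scrambled shRNA (vector, 3 libraries), both collected after puromycin selection. The labels gave a single shYB1 group, whereas the design text of the series mentions 3 independent shRNAs, and which hairpin each library carried was not stated. Because 1 cell line and 1 control were used, an effect of the hairpin itself and an effect of YB1 loss cannot be told apart.

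Purine nucleotides are built stepwise on a ribose phosphate. PRPS1 makes the activated ribose (PRPP), PPAT commits it to the pathway, and GART, PFAS, PAICS, ADSL and ATIC complete the ring to yield inosine monophosphate (IMP), from which IMPDH and GMPS make the guanine branch. Dividing cells depend on the pathway for DNA and RNA synthesis, and IMPDH is the target of immunosuppressive drugs such as mycophenolate.

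Values were deposited in FPKM, fragments assigned to a gene scaled by its transcript length and by the size of the library. FPKM totals ran from 282736 in vector replicate 1 to 295887 in vector replicate 3. The number of fragments behind each value is unknown, and the spacing of the lowest values gave only relative depths of 0.979 to 1.10 times that of shYB1 replicate 1. Fold changes are given as log2 differences of FPKM + 0.1 between shYB1 and vector, which understates changes of low genes. They were tested with limma, a linear model that shares information on variance among genes, and a gene was called higher or lower at a Benjamini-Hochberg adjusted p under 0.05.

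The target of the hairpin, YBX1, which encodes YB1, measured 366.5, 372.8 and 377.9 FPKM in vector and 166.7, 165.9 and 173.3 FPKM in shYB1. The groups were far apart, with a log2 fold change of -1.14 ± 0.031 (SE; limma, Benjamini-Hochberg adjusted p = 1.53e-08). In bulk samples such as these, fewer cells of a type and less RNA per cell cannot be told apart. Of 50-base words in YBX1 transcripts, 30.7% also occurred in other genes, mostly the pseudogene YBX1P1, and how such reads were assigned was not given in the sources used here. All 10 markers of renal epithelium and ccRCC were detected, among them the lineage factor PAX8 at 77.1 ± 0.238 FPKM in vector and 77.5 ± 1.67 FPKM in shYB1 (SD, n = 3 each). Markers of other cell types were lower, the most abundant of each type being the macrophage gene LYZ (mean 1.15 FPKM), the endothelial gene PECAM1 (0.331 FPKM) and the fibroblast gene LUM (2.18 FPKM). LYZ varied between libraries, at 1.835, 2.87 and 0.0704 FPKM in vector and 0.173, 0.692 and 1.255 FPKM in shYB1, and CD3E, CDH5 and COL1A2 were listed at 0 in every library.

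Purine enzymes were higher or not called after YB1 knockdown, and none was called lower. GART, PPAT, PAICS, GMPS and PRPS1 rose, by 33.2%, 24.1%, 11.5%, 13.6% and 8.78% of their vector mean, while IMPDH1 and PFAS lay within the spread of the libraries. The count called higher was 5 of 10, beside 18.7% of all genes tested (1956 of 10439), and the count called lower was 0 of 10, beside 6.93% (723 of 10439). The groups were fully apart in FPKM as deposited, with all 3 shYB1 libraries above all 3 vector libraries, for 7 of 10 members. This was so for 30.1% of all genes tested, and neither figure was recomputed under another scaling. Calls across the table leaned towards higher values, and this lean depended on the scaling. With FPKM rescaled by median-of-ratios factors, which sets the typical gene equal between libraries, 3 of 10 members (GART, PPAT and PAICS) were called higher beside 11.2% of all genes (1171), and 0 of 10 lower beside 12.2% (1273). The median log2 fold change of the 10 members was 0.13, against 0.055 for all genes tested, and 0.076 against -0.00057 after the rescaling. The summed FPKM of the members were 267.1, 265.1 and 275.8 in vector and 294, 296.5 and 294.5 in shYB1.

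**Figure D1:**
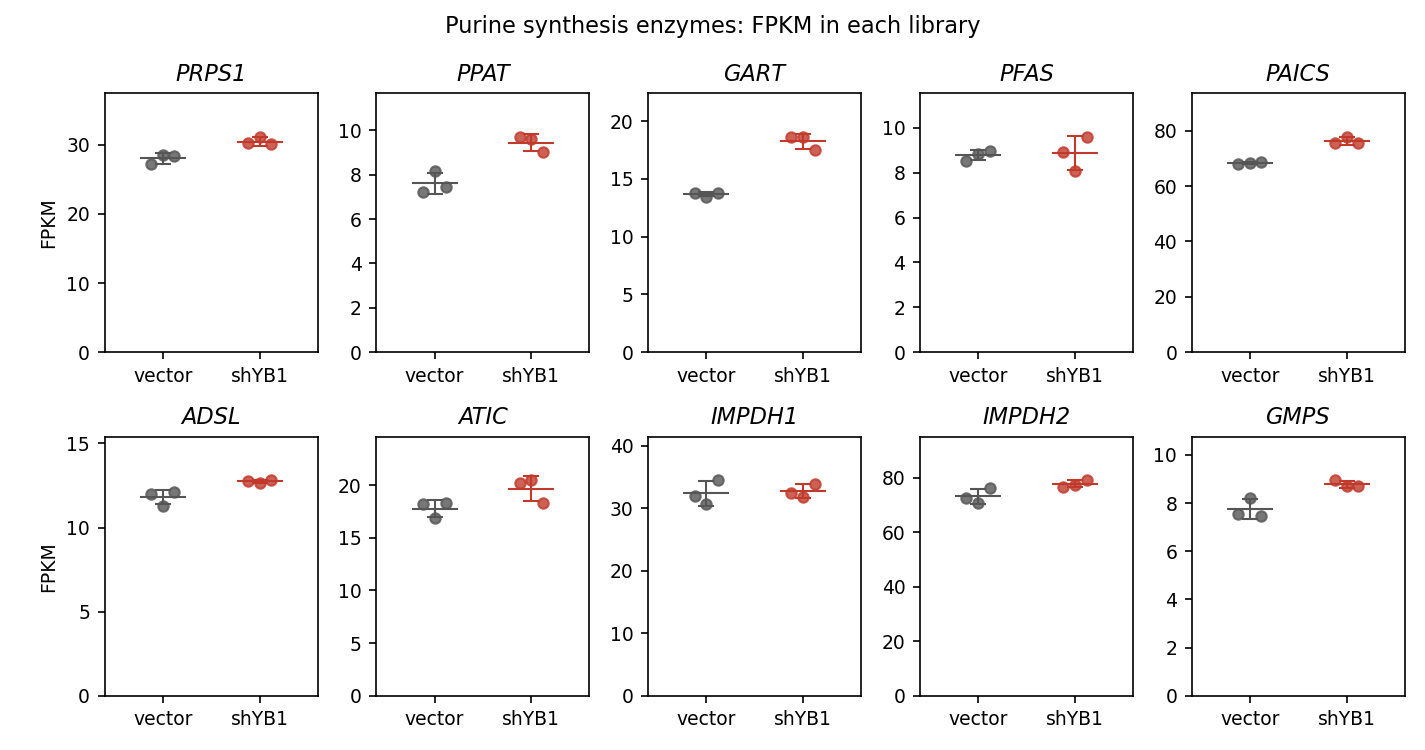
FPKM of the 10 purine synthesis enzymes in each of 3 vector (grey) and 3 shYB1 (red) libraries, in order of the pathway; each point is a library, the long bar is the mean and the error bar is the SD. The groups are apart for 7 members, most clearly for GART, while the points of IMPDH1, PFAS and ATIC overlap.

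In vector cells the members spanned a 9.61-fold range of FPKM. IMPDH2 (73.1) and PAICS (68.4) were the most abundant, followed by IMPDH1 (32.4), PRPS1 (28.0), ATIC (17.8), GART (13.7), ADSL (11.8), PFAS (8.78), GMPS (7.74) and PPAT (7.61). Each of these levels was separated from the next over the 3 vector libraries, except that GMPS and PPAT overlapped. In vector cells the enzyme that commits PRPP to the pathway was therefore the least abundant transcript of the members, or level with GMPS. Over all 6 libraries GMPS had the lowest mean (8.265 FPKM), with PPAT at 8.528 FPKM. The mean of GMPS exceeded that of 53.9% of the genes tested, that of PPAT 55.0% and that of IMPDH2 94.7%.

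PRPS1, which supplies PRPP, lies at chrX:107628424-107651026 on the plus strand (GENCODE annotation of GRCh38, as for all genes below). Its FPKM were 27.17, 28.52 and 28.38 in vector and 30.2, 31.19 and 30.05 in shYB1. All 3 shYB1 libraries exceeded all 3 vector libraries by a small margin. This gave a log2 fold change of 0.12 ± 0.038 (SE; limma, Benjamini-Hochberg adjusted p = 0.0387), and 0.065 after median-of-ratios rescaling. This call was lost in 9 of 15 alternative analyses, with adjusted p of 0.2 after that rescaling (range 0.0301 to 0.2 over the alternatives) and of 0.0573 to 0.132 in limma when any library other than vector replicate 3 was left out.

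PPAT, the amidotransferase that takes the committed step, lies at chr4:56393362-56435615 on the minus strand, with 11 exons. It measured 7.238, 8.161 and 7.431 FPKM in vector and 9.721, 9.599 and 9.019 FPKM in shYB1. Every shYB1 library was above every vector library, and the closest pair was vector replicate 2 and shYB1 replicate 3. Its log2 fold change was 0.31 ± 0.059 (SE; limma, Benjamini-Hochberg adjusted p = 0.00441). PPAT shares 7% of its 50-base words with other genes, nearly all with the pseudogene PPATP1.

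PAICS, a bifunctional enzyme that carries out a carboxylation and the following aspartate ligation, lies at chr4:56435741-56464579 on the plus strand. Its FPKM were 67.99, 68.48 and 68.83 in vector and 75.49, 77.89 and 75.55 in shYB1. The vector libraries were almost equal, so a modest shift separated the groups clearly. PAICS rose with a log2 fold change of 0.16 ± 0.031 (SE; limma, Benjamini-Hochberg adjusted p = 0.00488), and with 0.10 after median-of-ratios rescaling (limma, Benjamini-Hochberg adjusted p = 0.0291; range 0.00304 to 0.0321 over the alternatives). PAICS shares 4.95% of its words, mostly with its pseudogene PAICSP4.

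PPAT and PAICS are transcribed away from each other, and 125 bases of chromosome 4 separate the annotated genes. This interval is shown because both of its neighbours rose. It covers chr4:56435616-56435740, is given on the plus strand, in the direction of PAICS, and is intergenic in the annotation (sequence from RefSeq, GRCh38.p14). Capitals mark GGGCGG, a GC box sequence, which occurs 3 times.
PPAT to PAICS: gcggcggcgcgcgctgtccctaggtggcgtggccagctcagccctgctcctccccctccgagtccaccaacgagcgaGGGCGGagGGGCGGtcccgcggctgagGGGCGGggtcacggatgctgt

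The neighbours were compared with each other within libraries. The ratio of PPAT to PAICS FPKM within a library, which is not changed by multiplying a whole library by a factor, was 0.1065, 0.1192 and 0.108 in vector and 0.1288, 0.1232 and 0.1194 in shYB1. All shYB1 ratios exceeded all vector ratios, though shYB1 replicate 3 and vector replicate 2 were almost equal. The log2 difference was 0.16 (two-sided exact permutation test, p = 0.1, n = 3 per group). A comparison of 3 libraries against 3 cannot give p under 0.1 in this test, and with a pseudocount of 1 the exact p was 0.2.

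GART, a trifunctional enzyme that catalyses several of the early ring-building reactions, showed the largest change among the members. It lies at chr21:33503931-33543491 on the minus strand, and its chosen transcript has 22 exons. FPKM were 13.8, 13.47 and 13.81 in vector and 18.59, 18.66 and 17.48 in shYB1. The lowest shYB1 library stood well above the highest vector library. GART rose with a log2 fold change of 0.41 ± 0.044 (SE; limma, Benjamini-Hochberg adjusted p = 0.000144), with a 95% confidence interval of 0.31 to 0.51. A lower log2 fold change was found for 97.6% of the genes tested.

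The chosen transcript of GART overlaps the 5′ end of SON, a splicing factor gene on the opposite strand, by 244 bases, and the annotated GART gene, which begins further upstream, overlaps SON by more. Strand handling in the counting is not given in the sources used here, so reads from this overlap cannot be assigned to either gene with certainty. SON, chosen for this overlap after values were seen, measured 17.57, 17.4 and 17.5 FPKM in vector and 19.67, 18.85 and 19.13 FPKM in shYB1. Its shift was in the same direction as that of GART but smaller, with a log2 fold change of 0.13 ± 0.039 (SE; limma, Benjamini-Hochberg adjusted p = 0.0284), and it was not called after median-of-ratios rescaling. The part of these shared reads in the value of GART was not tested.

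**Figure D2:**
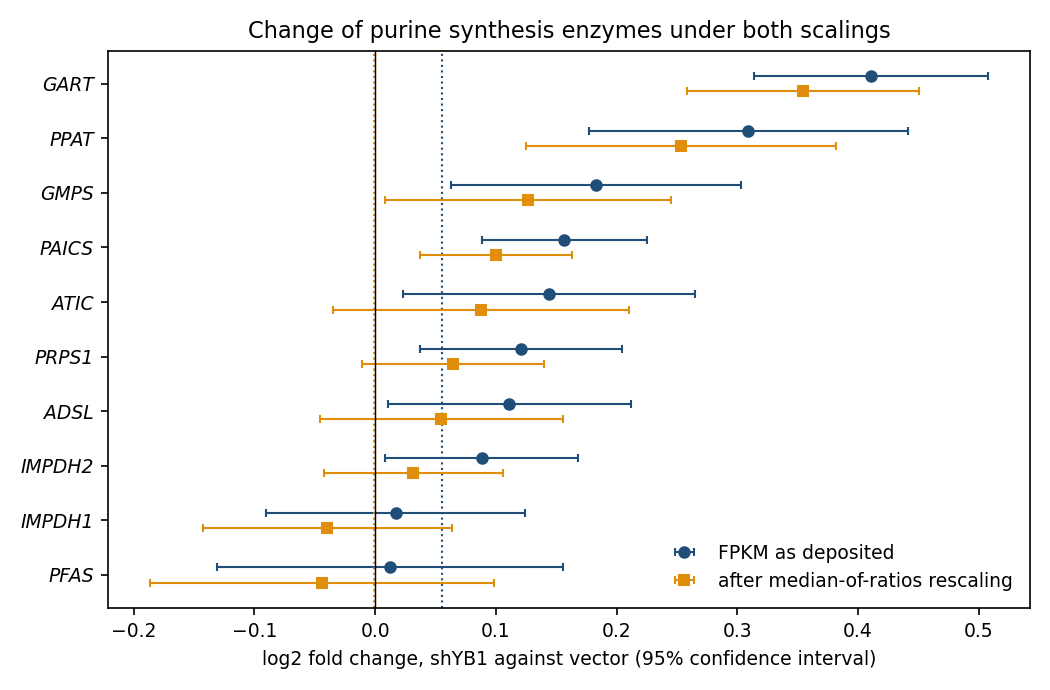
Log2 fold change of each member (shYB1 against vector) with its 95% confidence interval from limma, for FPKM as deposited (blue circles) and after median-of-ratios rescaling (orange squares); dotted lines mark the median of all 10439 genes tested under each scaling. The intervals of GART, PPAT, PAICS and GMPS lie above 0 under both, though GMPS was not called after the rescaling. The estimates of IMPDH1 and PFAS move from just above 0 to just below it with the rescaling.

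PFAS, the amidotransferase that acts between reactions of GART and the PAICS step, lies at chr17:8247618-8270491 on the plus strand. It measured 8.546, 8.822 and 8.976 FPKM in vector and 8.937, 8.084 and 9.614 FPKM in shYB1. The shYB1 libraries held both the lowest and the highest value, and the groups overlapped fully. The log2 fold change was 0.012 ± 0.065 (SE; limma, Benjamini-Hochberg adjusted p = 0.908), with a 95% confidence interval of -0.13 to 0.16, and it was -0.044 after median-of-ratios rescaling.

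ADSL, a lyase used both on the way to IMP and in the branch to AMP, lies at chr22:40346500-40390463 on the plus strand. FPKM were 11.98, 11.31 and 12.09 in vector and 12.76, 12.64 and 12.82 in shYB1. The groups were apart, with very close shYB1 values, yet the difference did not pass the threshold. The log2 fold change was 0.11 ± 0.045 (SE; limma, Benjamini-Hochberg adjusted p = 0.0972), and it was 0.055 after median-of-ratios rescaling. ADSL is the member with most shared sequence, 16.9% of its words, mostly with the gene model AL022238.4, so its level is uncertain.

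ATIC, which catalyses the last reactions to IMP, lies at chr2:215311817-215349773 on the plus strand. Its FPKM were 18.19, 16.84 and 18.27 in vector and 20.24, 20.47 and 18.27 in shYB1. Vector replicate 3 and shYB1 replicate 3 were level, while the other shYB1 libraries were higher. The log2 fold change was 0.14 ± 0.055 (SE; limma, Benjamini-Hochberg adjusted p = 0.0761), and it was 0.088 after median-of-ratios rescaling. Without shYB1 replicate 3 it was 0.20 and passed the threshold (limma, Benjamini-Hochberg adjusted p = 0.0273; range 0.0273 to 0.321 over the alternatives).

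IMPDH1 and IMPDH2 are isozymes that convert IMP to xanthosine monophosphate, the rate-limiting step towards guanine nucleotides. IMPDH1 lies at chr7:128392277-128410252 on the minus strand and measured 31.96, 30.66 and 34.49 FPKM in vector and 32.5, 31.76 and 33.94 FPKM in shYB1. The shYB1 values all fell inside the range of the vector values. For IMPDH1 the log2 fold change was 0.017 ± 0.048 (SE; limma, Benjamini-Hochberg adjusted p = 0.827), with a 95% confidence interval of -0.09 to 0.12. Its sign turned with the scaling, to -0.039 after median-of-ratios rescaling, and to -0.021 and -0.0090 when vector replicate 2 or shYB1 replicate 3 was left out. IMPDH1 shares 6.99% of its words with other genes.

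IMPDH2, the more abundant isozyme, lies at chr3:49024325-49029408 on the minus strand and shares no 50-base word with another gene. It measured 72.68, 70.6 and 76.04 FPKM in vector and 76.57, 77.45 and 79.09 FPKM in shYB1. The groups were narrowly apart, vector replicate 3 lying just under shYB1 replicate 1. For IMPDH2 the log2 fold change was 0.088 ± 0.036 (SE; limma, Benjamini-Hochberg adjusted p = 0.0968), and it was 0.032 after median-of-ratios rescaling. Without vector replicate 3 it was 0.12 and passed the threshold (limma, Benjamini-Hochberg adjusted p = 0.0283; range 0.0283 to 0.527 over the alternatives).

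The balance of the isozymes was compared within libraries. The ratio of IMPDH1 to IMPDH2 FPKM was 0.4398, 0.4343 and 0.4536 in vector and 0.4245, 0.4101 and 0.4291 in shYB1. All shYB1 ratios were below all vector ratios, with a log2 difference of -0.071 (exact permutation test, two-sided, p = 0.1). IMPDH2 was thus the more abundant isozyme transcript in all 6 libraries.

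GMPS, which aminates xanthosine monophosphate to GMP, lies at chr3:155870536-155944026 on the plus strand. Its FPKM were 7.543, 8.222 and 7.453 in vector and 8.955, 8.72 and 8.697 in shYB1. The shYB1 libraries were close together and all above the vector libraries. GMPS rose with a log2 fold change of 0.18 ± 0.054 (SE; limma, Benjamini-Hochberg adjusted p = 0.0315). The call was lost in 9 of 15 alternative analyses, with adjusted p of 0.114 in limma after median-of-ratios rescaling (range 0.019 to 0.114) and of 0.0598 to 0.0964 when any library other than vector replicate 2 was left out. GMPS shares 3.34% of its words, mostly with the pseudogene GMPSP1.

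**Figure D3:**
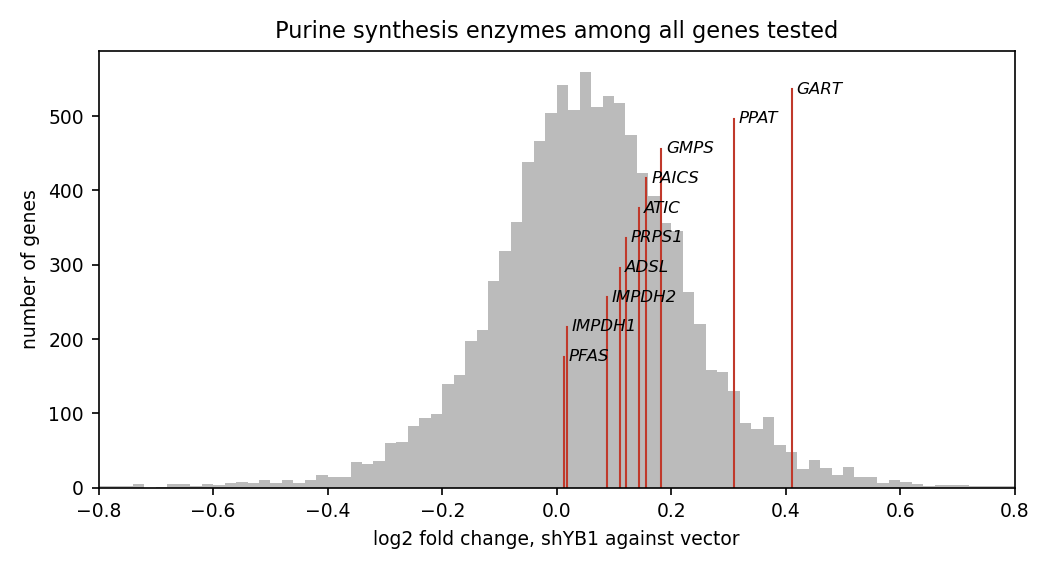
Histogram of the log2 fold change (shYB1 against vector) of the genes tested, with red lines at the members; the height of a line only separates the names, and 55 genes beyond 0.8 in either direction are not drawn. GART and PPAT lie in the upper tail, above 97.6% and 93.5% of the genes, while PFAS and IMPDH1 lie just left of the centre of the distribution, above 39.1% and 40.3%.

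Promoter windows from RefSeq (GRCh38.p14), which run from 250 bases before to 50 bases after a start site, were matched by symbol for 8 members, all but IMPDH2 and ADSL, with 12 windows among them. They were searched on both strands for CCAAT, which is part of the Y-box sequence that gave YB1 its name, and for CACGTG, the E-box bound by MYC and related factors. A match to the former was found in windows of GART and PRPS1, that is 2 of 8 members, beside 39.7% of all genes with a window and 34.6% of all 35116 windows. An E-box match was found in windows of PPAT, PAICS and ATIC, that is 3 of 8, beside 8.77% of genes and 7.26% of windows. The GC box, GGGCGG on either strand, was added after the windows were seen and occurred in windows of all 8, beside 48.3% of genes and 45% of windows. A match is a description of the letters and does not show that a protein was bound.

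Examples of the matches in GART, PRPS1, ATIC and PPAT are shown with their surroundings, so that the searched motifs can be seen in place. Further matches in GART, one of which lies between the stretches shown, and in ATIC are not printed. GART stretches cover chr21:33542998-33543027 and chr21:33542928-33542957 on the minus strand, within an untranslated exon of SON on the plus strand. The PRPS1 stretch covers chrX:107628342-107628371 on the plus strand, upstream of the gene, and the ATIC stretch chr2:215312001-215312030 on the plus strand, in its own untranslated exon. The PPAT stretch covers chr4:56435780-56435809 on the minus strand, in an untranslated exon of PAICS on the plus strand, and its palindromic CACGTG is the same match that was counted for PAICS. Capitals mark CCAAT or CACGTG.
GART stretch 1: gaggcgcacgggCCAATtcggtctctcgcc
GART stretch 3: tccaccgagggaCCAATcagtgagcacggc
PRPS1 stretch: catgctcttcacCCAATacctgagagaatc
ATIC stretch: gggccggcgggcCACGTGataagcccggaa
PPAT stretch: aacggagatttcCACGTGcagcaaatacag

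Genes connected to the pathway were counted in lists, each read beside the 18.7% higher and 6.93% lower of all genes tested. All 10 members carry the KEGG purine metabolism annotation of the deposited table, and among the 107 other tested genes with it 26 were called higher and 7 lower (15 and 7 after median-of-ratios rescaling). Among 5 further genes of PRPP synthesis and the AMP branch, ADSS, which takes IMP towards AMP, rose with a log2 fold change of 0.19, and its muscle-type paralog ADSSL1 fell by 0.26 (0 higher and 1 lower after rescaling). Of 14 salvage and transport genes, HPRT1, SLC29A1, DGUOK and AMPD2 rose (log2 fold changes 0.20, 0.16, 0.20 and 0.11), and 0 fell, but after the rescaling 1 was called higher and 1 lower. Of 6 genes of nucleotide breakdown 3 rose, NT5E, the surface enzyme that makes adenosine from AMP, by 0.68, ITPA by 0.39 and NT5C2 by 0.20 (2 higher and 0 lower after rescaling).

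Enzymes that provide the carbon and nitrogen of the purine ring moved in both directions. In folate metabolism, which delivers the formyl groups used by GART and ATIC, 3 of 7 genes rose, MTHFD2 (log2 fold change 0.31), SHMT2 (0.17) and MTHFD1 (0.19), and the cytosolic SHMT1 fell by 0.18, with the same counts after rescaling. In the supply of glutamine, glycine and aspartate 5 of 9 tested genes rose and 0 fell (4 and 1 after rescaling). The rises were led by the serine synthesis enzymes PSAT1 (0.49) and PSPH (0.35), then GOT1 (0.25) and ASNS (0.21). GLUL and PHGDH of this list were too low to be tested. Their means were 0.303 and 0.0305 FPKM in vector and 0.204 and 0 FPKM in shYB1. In the pentose phosphate pathway, the source of ribose phosphate, TALDO1 rose (0.18) and was called higher under both scalings.

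Nucleotide kinases and ribonucleotide reductase, which act downstream, had 7 of 17 genes higher and 1 lower (4 and 1 after rescaling), with NME1 (0.34), AK5 (0.37), NME6 (0.49) and NME7 (0.21) higher and AK7 lower (-0.49). Pyrimidine synthesis had 6 of 12 higher and 0 lower (5 and 0 after rescaling), among them CTPS1 (0.60), CAD (0.22), DCTD (0.18) and DTYMK (0.36). Proliferation genes had 9 of 18 higher and 0 lower (7 and 1 after rescaling), among them PCNA (0.24), MCM4 (0.23), BUB1 (0.26) and MCM7 (0.21). The median log2 fold changes of these lists were 0.098, 0.16 and 0.15, beside 0.13 for the purine enzymes. The part of proliferation in the change of the purine enzymes was not tested.

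**Figure D4:**
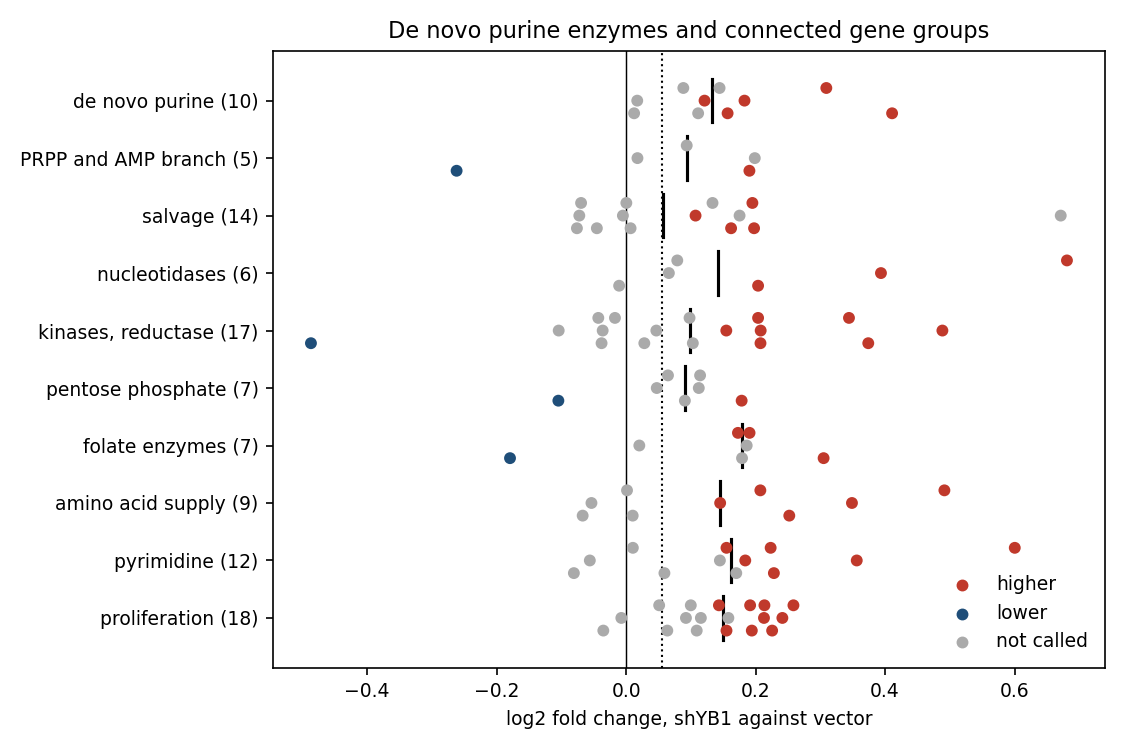
Log2 fold change (shYB1 against vector, FPKM as deposited) of each tested gene in the de novo purine group and in connected groups, with the number of genes in brackets; red points were called higher, blue points lower and grey points neither, the short bar is the median of a group and the dotted line the median of all genes tested. Group medians lie at or to the right of the dotted line, and called genes are mostly higher, a lean that was weaker after median-of-ratios rescaling.

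Among 5 tested transcription factors linked to nucleotide synthesis genes, E2F1 was called higher (log2 fold change 0.19) and ATF4 lower (-0.11), and after rescaling 0 were higher and 1 lower. MYC, which binds CACGTG, measured 63.05, 64.83 and 63.97 FPKM in vector and 67, 70.27 and 66.62 FPKM in shYB1. Its groups were apart, but its log2 fold change of 0.087 did not pass the threshold (limma, Benjamini-Hochberg adjusted p = 0.0841). After median-of-ratios rescaling the log2 fold change of MYC was 0.031 (limma, Benjamini-Hochberg adjusted p = 0.512). Of the 10 renal and ccRCC markers, PAX2 rose (0.15) while CDH6 fell by 0.54 and NNMT by 0.37, and after rescaling PAX2 was no longer called.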

How the data were processed

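RNA of 6 libraries of 786-O cells was sequenced by the authors, who deposited FPKM per gene. The submitters' processing notes name Trimmomatic, HISAT2, Cufflinks, HTSeq and DESeq and the build GRCh38, without versions or settings. All per-library columns were used (0 left out). No counts were used, so no count test was run. Genes averaging 1 FPKM or more were put on the scale log2(FPKM + 0.1). The groups were compared by limma (version 3.58.1, under R 4.3.3; linear model, then eBayes with trend and robust prior), two-sided, and p-values were adjusted by Benjamini-Hochberg across every gene tested. This step was tested on simulated data. Ratios were compared with exact permutation tests in Python 3.11.15 with SciPy 1.17.1. Coordinates and 50-base words shared between transcripts came from GENCODE, and promoter windows from RefSeq.

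Named genes were all members, YBX1 and, from each list, those with adjusted p under 0.05, at most the 4 lowest in each direction; lists without any were given by their most abundant gene. A few genes that this rule takes are not reported here. Members and lists were chosen with earlier results of these data known. Nothing states that the libraries of a group came from separate cultures, so p-values measure the spread between these libraries, which may be technical. Alternatives were pseudocounts of 1 and 0.01, no filter or one at 5 FPKM, median-of-ratios, common-total (TPM) and quantile scaling, a prior without trend, a replicate block, and each library left out in turn.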

Additional observations from a re-analysis of the deposited data

How the results depend on the processing

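Of 256 values recomputed under the alternatives, 218 kept their direction and their side of the threshold or stayed close in size. GART, PPAT and PAICS were called higher in all 16 fits. The counts over all genes moved most under the median-of-ratios and quantile scalings, and little under the common total. Genes called lower numbered 1273 after median-of-ratios rescaling and 1184 after quantile normalization, against 723, and genes called higher 1171 and 1267, against 1956. Members called higher numbered 3 under each of these scalings and 3 with no filter, where more genes were tested, against 5, and 3 to 5 when a library was left out. The log2 fold change of IMPDH1 turned to -0.039 and -0.035 under the same scalings and ranged from -0.021 to 0.064 with a library left out. That of PFAS turned to -0.044 under both and ranged from -0.046 to 0.077. Neither was called in any of these. The cause of these shifts was not tested. PRPS1 and GMPS each lost their call in 9 of 15 alternatives, and IMPDH2 and ATIC each gained one in 1. Libraries with the same replicate number did not deviate together (r = -0.17, -0.059 and -0.0082 across genes, which are not independent). Pairs without a shared deviation would look the same, so whether the numbers pair the libraries stays unknown. With a replicate block 2074 genes were called higher and 760 lower, and 5 members higher. Without fragment counts, what depth limits could not be computed.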
